A study of Gallus gallus with 8 samples.

Results

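The genes described here encode 8 transcription factors of early endoderm: SOX17, GATA4, GATA5, GATA6, FOXA1, FOXA2, HNF4A and HHEX. They were chosen by name, as the probe sets whose symbol in the array's probe annotation was one of these 8, and all 8 were present, with 12 of the 38439 probe sets of the array. HNF4A had 3 probe sets, GATA5 and SOX17 had 2 each, and the other 5 genes had 1 each. Signals were measured in chicken yolk sac endoderm at embryonic days 1, 2, 3 and 4, with 2 independent total RNA samples and 2 Affymetrix Chicken Genome Arrays per day. All 4 groups were untreated Gallus gallus eggs kept at 38 °C, and the groups are the 4 labelled stages; the labels used here give neither breed nor sex. Each sample pooled tissue taken every 4 h over its day, after dispase had been used to part endoderm from mesoderm, so a day's value averages over stages and over embryos, and p-values measure the spread between pools. The source label of the day 1 samples reads yolk sac where that of the later days reads yolk sac endoderm, while the tissue label of all 8 is endoderm.

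Endoderm is set up in vertebrate embryos by Nodal signals, which switch on SOX17, an HMG-box factor, and the zinc finger factors GATA4, GATA5 and GATA6. The forkhead factors FOXA1 and FOXA2 open chromatin at endodermal genes, and HNF4A, a nuclear receptor, then drives genes of serum proteins and lipid transport in liver and in extraembryonic endoderm. HHEX is a homeobox repressor of anterior endoderm that also acts in precursors of blood and vessels. Several of these genes are active outside endoderm as well, SOX17 and HHEX in endothelium and the GATA factors in heart mesoderm.

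Signals are given after quantile normalization, in arbitrary units, because the deposited signals were not on a common level: array medians were 11.8 to 26.0, with the highest on day 1 replicate 2. Changes are differences of log2(normalized signal + 16) between days with their SE, tested with limma over the 23063 probe sets that passed a filter on the mean signal (9.97), and adjusted by the Benjamini-Hochberg method over all of them. A change was called at an adjusted p under 0.05. Outside the 8 genes, no size of change is given where both arrays of a day were below the filter level, since the added 16 then sets it. On the deposited scale the median change of all probe sets from day 1 was -0.42 for day 2, -0.43 for day 3 and -0.55 for day 4, against -0.02, 0.00 and 0.01 after normalization, so a call that differs on the deposited scale is stated beside the result. Probe sets differ in how brightly they bind, so levels are compared between days and not between genes.

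Cell type markers were read first, and they set 2 arrays apart. The 10 markers of yolk sac endoderm summed to 50748 to 64219 on days 2 to 4 and 29120 to 33172 on day 1. TTR, which encodes the thyroid hormone carrier transthyretin, lay between 7695 and 9910 on all 8 arrays. It was not typical of the list, of which 7 of 9 tested markers were called higher on day 4, against 10.6% of all probe sets. RBP4 of that list was below the filter. The 16 markers of mesoderm and primitive streak summed to 2917 and 4106 at day 1, 13029 and 542 at day 2, 4894 and 539 at day 3, and 678 and 433 at day 4. The 15 endothelial markers summed to 4008 and 2671 at day 1, 5205 and 957 at day 2, 1891 and 698 at day 3, and 740 and 530 at day 4. Replicate 1 of days 2 and 3 was thus far above its partner in both sums. On day 2 replicate 1 most of the mesoderm sum came from the collagen genes COL3A1, COL1A1 and COL1A2 (4672, 2751 and 2696). The streak gene TBXT was at 5.14 there, below the filter level, and at 113 and 420 on day 1. TWIST1 and HAND2 were at 27.5 and 101 there, also below both of their day 1 signals. Others of the list were above both of their day 1 signals there, among them SNAI2, VIM and FOXF1 at 904, 1729 and 35.9. Among single markers on those days, COL3A1, which encodes a fibrillar collagen of connective tissue, was 4672 and 37.4 at day 2 and 1481 and 67.8 at day 3, and CDH5, which encodes VE-cadherin of endothelium, was 1106 and 9.27 at day 2 and 230 and 3.91 at day 3. Not all markers were split in this way. CLDN5, of the endothelial list, was 372 and 502 at day 2 and 584 and 350 at day 3. MESP1, of the mesoderm list, was 28.4 and 46.7 at day 2 and 35.0 and 36.0 at day 3. The 12 cardiac muscle markers summed to 348 to 620 on later days and to 1661 and 1726 on day 1, the 13 ectoderm and neural markers to 273 to 595 later and to 1888 and 1870 on day 1, and the 8 primitive blood markers to 17410 to 51595 later and to 4816 and 1819 on day 1. The ratio of 3' to 5' actin signal, a sign of RNA integrity, was 2.91 and 1.50 at day 1, 1.74 and 3.77 at day 2, 2.63 and 3.36 at day 3, and 4.30 and 3.22 at day 4, and its part in the results was not tested. In such bulk samples fewer cells of a type and less RNA per cell cannot be told apart.

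The factors fell into 3 groups by a rule on the tests of days 2, 3 and 4 against day 1. GATA5 fell at all 3 later days, and on day 4 it was 20.4-fold lower than on day 1 on the scale tested. HHEX fell on days 3 and 4 and SOX17 on day 3. The 2 arrays of a day differed widely for HHEX on days 2 and 3 and for SOX17 on days 3 and 4. Those of HHEX on day 4 were close. The other 5 genes, HNF4A, GATA6, FOXA2, GATA4 and FOXA1, were not called lower on any later day, and of these GATA6 rose on days 3 and 4 and HNF4A on day 4. With unscaled deposited signals HHEX fell at all 3 later days and neither GATA6 nor HNF4A was called.

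**Figure D1:**
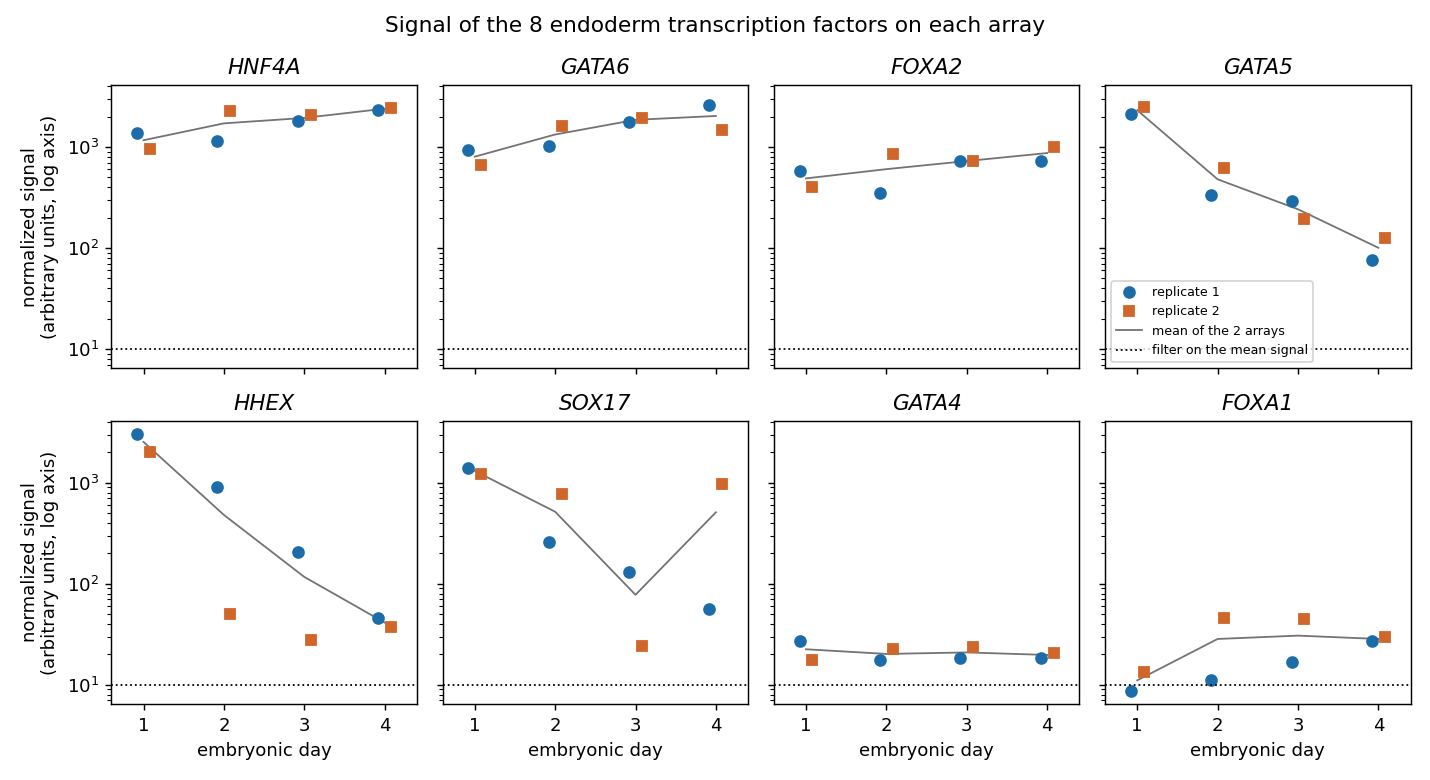
Quantile-normalized signal (arbitrary units, log axis) of the brightest probe set of each of the 8 genes against embryonic day; circles are replicate 1, squares replicate 2, the grey line joins the means of the 2 arrays of a day and the dotted line is the filter on the mean signal, 9.97. HNF4A, GATA6 and FOXA2 stay between 347 and 2585, GATA5 declines day by day, and HHEX and SOX17 differ widely between the arrays of a day.

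GATA5, a GATA factor of endoderm and heart-forming tissue, had the most even decline. Its brighter probe set gave 2131 and 2498 at day 1, 334 and 624 at day 2, 289 and 194 at day 3, and 76.5 and 125 at day 4. On this probe set the arrays of each day lay below both arrays of the day before, as those of day 2 did for 28.9% of all probe sets. That share was not counted for the later steps. Against day 1 the log2 change was -2.30 ± 0.34 on day 2 (adjusted p = 0.0077), -3.20 ± 0.34 on day 3 (adjusted p = 0.00066) and -4.35 ± 0.34 on day 4 (adjusted p = 0.00022).

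The second GATA5 probe set gave 495 and 711 at day 1, 81.7 and 172 at day 2, 92.3 and 104 at day 3, and 39.5 and 28.8 at day 4. After normalization its arrays of days 2 and 3 overlapped, with a change of -0.25 ± 0.34 between them (adjusted p = 0.79). On the deposited scale both of day 3 were lower. Its changes against day 1 were -2.17 ± 0.34, -2.42 ± 0.34 and -3.61 ± 0.34 (adjusted p = 0.0095, 0.0021 and 0.00051). Both probe sets therefore passed the test at each later day. By rank among the probe sets of its own array, which no scaling of arrays changes, the brighter set stood at percentiles 74.1 and 79.7 at day 4 and 98.4 and 98.7 at day 1. GATA5 was lower on day 2 replicate 1 than on replicate 2, while the mesoderm and endothelial sums were higher on replicate 1. On day 3 its brighter set was higher on replicate 1 (289 and 194), as those sums were. The summed cardiac signal was lower on every later day than on day 1, as GATA5 was, with 4, 5 and 5 of 9 tested markers called lower on days 2, 3 and 4 and 0, 1 and 0 called higher. The ectoderm and neural sum was lower too, with 4, 5 and 4 of 11 tested markers called lower and 0 higher. Of all probe sets 2.04%, 13.5% and 12% were called lower on these days. The part of cardiac or ectodermal cells in the fall of GATA5 was not tested. The day 2 call rested on both day 1 arrays: the adjusted p was 0.057 without day 1 replicate 1 and 0.098 without day 1 replicate 2, with changes of -2.43 and -2.23.

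GATA6, a GATA factor of visceral endoderm in the mouse and of heart mesoderm, went the other way. Its only probe set gave 934 and 671 at day 1, 1027 and 1631 at day 2, 1757 and 1959 at day 3, and 2585 and 1473 at day 4. Both arrays of each later day were above both of day 1, and the arrays of day 4 spanned those of day 3. Such a gap above day 1 was common, at 25.3%, 33.9% and 32.9% of all 23063 probe sets on days 2, 3 and 4. On the deposited scale day 2 of GATA6 overlapped with day 1. The change against day 1 was 0.70 ± 0.31 on day 2 (adjusted p = 0.23), 1.21 ± 0.31 on day 3 (adjusted p = 0.023) and 1.29 ± 0.31 on day 4 (adjusted p = 0.021). Its changes on the deposited scale were 0.34, 0.84 and 0.70 and none was called (adjusted p = 0.50, 0.067 and 0.11), so the rises depended on the scaling. The day 3 call was also lost without either array of day 1 or of day 3, with changes of 1.00 to 1.46 (adjusted p = 0.054 to 0.16), and the day 4 call without either array of day 1 or day 4 replicate 1, with changes of 0.88 to 1.54 (adjusted p = 0.053 to 0.15).

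GATA4, the third GATA factor of endoderm and heart, was represented by 1 dim probe set. It gave 27.2 and 17.7 at day 1, 17.6 and 22.7 at day 2, 18.3 and 23.5 at day 3, and 18.6 and 20.8 at day 4, at percentiles 52.8 to 60.3 of its arrays. After normalization the days overlapped throughout. On the deposited scale both arrays of each later day were below both of day 1. Such a gap was found for 45.4%, 49.2% and 55.8% of all probe sets on days 2, 3 and 4. The GATA4 changes on that scale were -0.43, -0.37 and -0.53, and none was called (adjusted p = 0.34, 0.37 and 0.18). The change on day 4 was -0.10 ± 0.24, with a 95% interval of -0.64 to 0.44 (adjusted p = 0.80). At such signals the 16 added before the logarithm makes changes look smaller than they are.

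HHEX, the homeobox repressor, fell by 5.45 on the log2 scale by day 4, and its replicates were split on days 2 and 3. Its probe set gave 3069 and 2007 at day 1, 911 and 49.6 at day 2, 206 and 27.5 at day 3, and 45.7 and 36.9 at day 4. Every later array was below both day 1 arrays, as for 28.9%, 34.5% and 32.9% of all probe sets on days 2, 3 and 4. Yet the 2 arrays of day 2 differed 18.4-fold and those of day 3 7.51-fold, while those of day 4 were close. Against day 1 the change was -3.34 ± 1.11 on day 2 (adjusted p = 0.12), -4.67 ± 1.11 on day 3 (adjusted p = 0.017) and -5.45 ± 1.11 on day 4 (adjusted p = 0.010). On the deposited scale the day 2 change of -3.63 was called (adjusted p = 0.046). The day 2 value turned on its 2 arrays: it was -5.26 without replicate 1 (adjusted p = 0.0078) and -1.43 without replicate 2 (adjusted p = 0.44).

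On days 2 and 3 HHEX was higher on replicate 1, the array with the higher mesoderm sum, endothelial sum, CDH5 and COL3A1 signals. Against day 1 the orders differed. On day 2 replicate 1 the mesoderm and endothelial sums (13029 and 5205) were above both day 1 arrays, while HHEX was below both. On day 4 both sums and HHEX were below both day 1 arrays. Without day 2 replicate 1 and day 3 replicate 1, a choice made after the data were seen, the change was -5.25 on day 2, -5.84 on day 3 and -5.45 on day 4. The arrays left out were those with the higher HHEX signal of their day, so larger falls on days 2 and 3 were fixed in advance. That choice also left no replicate on either day, so these values do not test the fall. The remaining arrays gave 49.6 on day 2 and 27.5 at day 3, beside 45.7 and 36.9 at day 4. With all days in place, the call on day 4 was lost without day 1 replicate 1, day 1 replicate 2 or day 4 replicate 1 (adjusted p = 0.072, 0.064 and 0.059), with changes of -5.17, -5.81 and -5.56. That on day 3 was lost without day 1 replicate 1, day 1 replicate 2 or day 3 replicate 2 (adjusted p = 0.097, 0.078 and 0.12), with changes of -4.39, -5.03 and -3.45, and with a robust trend (adjusted p = 0.062). The part of endothelial and mesodermal cells in the day 1 signal was not tested.

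**Figure D2:**
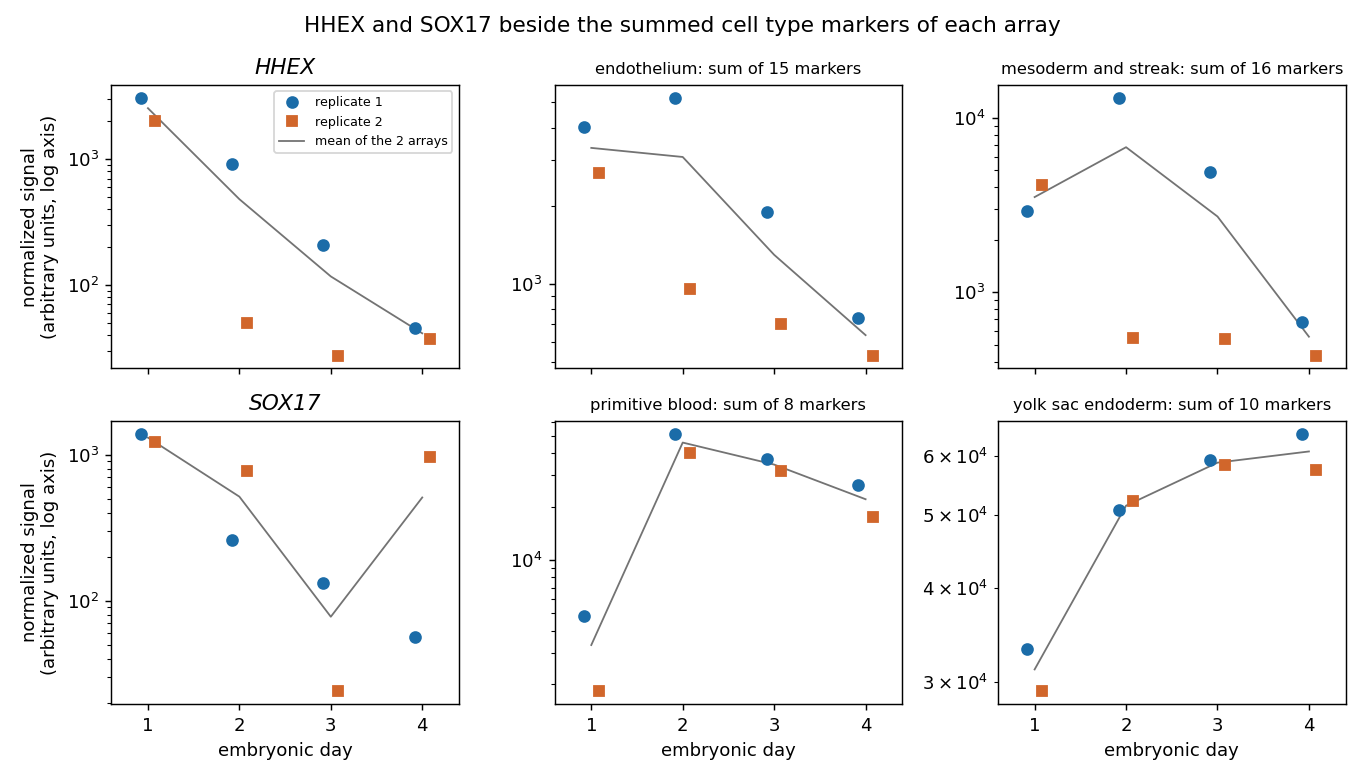
Normalized signals of HHEX and SOX17 (left) beside the summed normalized signals of the endothelial, mesoderm and streak, primitive blood and yolk sac endoderm markers (centre and right) on each array, all on log axes in arbitrary units; circles are replicate 1, squares replicate 2 and the line joins day means. On days 2 and 3 HHEX is higher on replicate 1 than on replicate 2, as the endothelial and mesoderm sums are. On day 2 replicate 1 both sums lie above both day 1 arrays and HHEX below them. SOX17 on day 4 is high on replicate 2 (964) and low on replicate 1 (56.3).

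SOX17, the HMG-box factor of definitive and extraembryonic endoderm and of arterial endothelium, fell on day 3 and varied on day 4. Its brighter probe set gave 1397 and 1225 at day 1, 261 and 773 at day 2, 132 and 24.0 at day 3, and 56.3 and 964 at day 4. The arrays of every later day lay below both of day 1, as for 28.9%, 34.5% and 32.9% of all probe sets on days 2, 3 and 4. The 2 arrays of day 4, however, differed 17.1-fold. The change against day 1 was -1.50 ± 1.09 on day 2 (adjusted p = 0.47), -4.11 ± 1.09 on day 3 (adjusted p = 0.026) and -2.31 ± 1.09 on day 4 (adjusted p = 0.16). Without day 4 replicate 2 the day 4 change was -4.19 and was called (adjusted p = 0.012), while without day 4 replicate 1 it was -0.43 (adjusted p = 0.77). On the deposited scale the day 4 change of -2.88 was called with both arrays (adjusted p = 0.032). The day 3 call was lost without day 1 replicate 1, day 1 replicate 2 or day 3 replicate 2, with changes of -4.03, -4.22 and -3.14. It was also lost with a robust trend.

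The second SOX17 probe set was dimmer and ordered the arrays in nearly the same way. It gave 51.1 and 48.0 at day 1, 8.85 and 32.1 at day 2, 6.52 and 1.10 at day 3, and 14.7 and 33.8 at day 4, and thus it too was higher on replicate 2 of day 4. Its 3 signals on day 2 replicate 1 and day 3 were below the filter level. Its changes against day 1 were -0.92 ± 0.37, -1.74 ± 0.37 and -0.75 ± 0.37 (adjusted p = 0.18, 0.010 and 0.18), where the added 16 sets the size on day 3. On the deposited scale it was called at all 3 days (adjusted p = 0.043, 0.0016 and 0.017). The high SOX17 array of day 4 had the lowest endothelial and mesoderm sums of the 8, 530 and 433. Its ectoderm and neural sum was 526, against 287 on day 4 replicate 1, and its cardiac sum 408, against 401. The part of cells other than endoderm in the SOX17 signal was not tested.

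HNF4A, the nuclear receptor that drives serum protein and apolipoprotein genes in mouse visceral endoderm and liver, was high from the first day. Its brightest probe set gave 1384 and 950 at day 1, 1140 and 2287 at day 2, 1823 and 2058 at day 3, and 2337 and 2454 at day 4. Both arrays of days 3 and 4 were above both of day 1, as for 33.9% and 32.9% of all probe sets, and day 2 overlapped with day 1. The change against day 1 was 0.49 ± 0.31 on day 2 (adjusted p = 0.39), 0.75 ± 0.31 on day 3 (adjusted p = 0.11) and 1.05 ± 0.31 on day 4 (adjusted p = 0.041). With 1 array left out at a time it ran from -0.0076 to 0.99 on day 2 and from 0.49 to 1.02 on day 3. Whether these 2 changes were called depended on the array. The day 4 rise passed the threshold in 11 of 20 alternatives, and on the deposited scale it was 0.54 ± 0.31 (adjusted p = 0.20).

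The other HNF4A probe sets were dimmer and did not pass on day 4. The first gave 58.2 and 83.9 at day 1, 105 and 57.8 at day 2, 244 and 98.1 at day 3, and 184 and 68.9 at day 4. The second gave 23.1 and 23.9 at day 1, 36.1 and 32.0 at day 2, 49.2 and 54.6 at day 3, and 49.3 and 33.4 at day 4. It rose on day 3 (0.78 ± 0.24, adjusted p = 0.043) and was at 0.52 ± 0.24 on day 4 (adjusted p = 0.15). On the deposited scale its day 3 change was 0.33 and was not called (adjusted p = 0.50). The day 4 changes of this pair on that scale were -0.19 and -0.06, so their direction depended on the scaling.

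FOXA2, the forkhead factor of node, floor plate and endoderm, was not called on any later day. Its probe set gave 573 and 404 at day 1, 347 and 860 at day 2, 724 and 728 at day 3, and 735 and 1007 at day 4. The arrays of days 3 and 4 were above both of day 1, as for 33.9% and 32.9% of all probe sets, and day 2 spanned it. On the deposited scale each later day overlapped with day 1. The change was 0.18 ± 0.38 on day 2, 0.58 ± 0.38 on day 3 and 0.82 ± 0.38 on day 4 (adjusted p = 0.83, 0.30 and 0.16). The 95% interval on day 4 ran from -0.06 to 1.69, and on the deposited scale the change was 0.10. With 1 array left out at a time the day 4 change ran from 0.59 to 1.07, and whether it was called depended on the array.

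FOXA1, its paralogue in endoderm, was dim on all arrays. Its probe set gave 8.61 and 13.5 at day 1, 11.1 and 45.7 at day 2, 16.8 and 44.5 at day 3, and 27.0 and 29.9 at day 4. On days 2 and 3 it was higher on replicate 2, the array with the lower mesoderm sum. On day 2 FOXA2 and the brightest HNF4A set were too, and so were GATA4, GATA5, GATA6 and SOX17. HHEX and the dimmer HNF4A sets were higher on replicate 1 of that day. The change on day 4 was 0.72 ± 0.42, with a 95% interval of -0.23 to 1.67 (adjusted p = 0.25). Without the first arrays of days 2 and 3 the day 3 change was 1.17. That choice was made after the data were seen and left no replicate on either day.

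**Figure D3:**
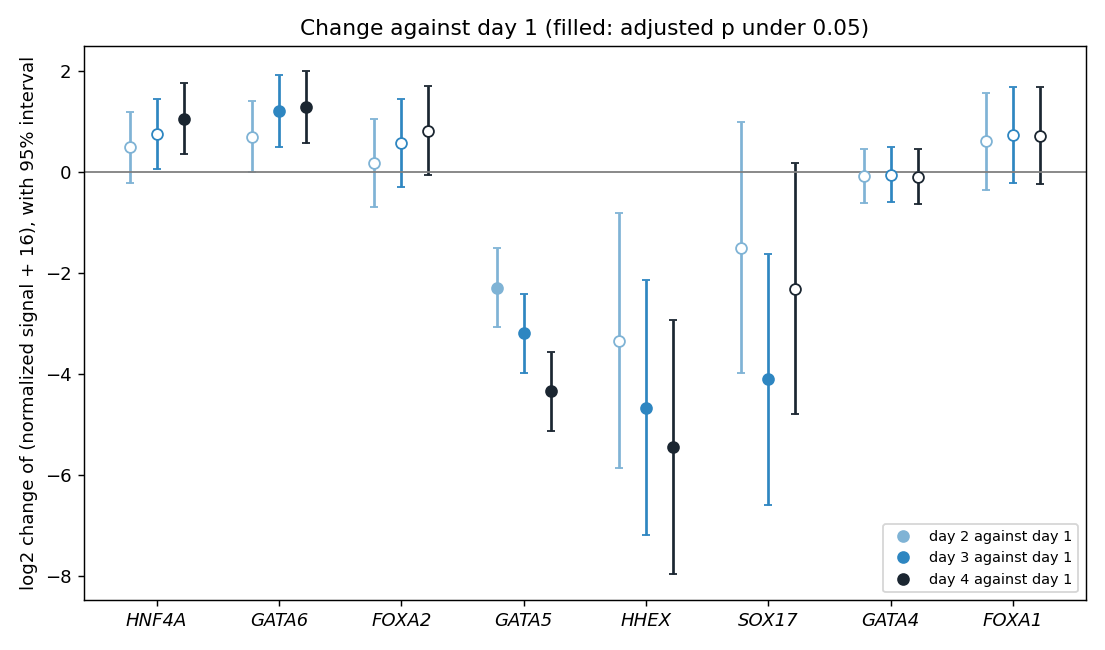
Change of log2(normalized signal + 16) on days 2, 3 and 4 against day 1 for the brightest probe set of each gene, with its 95% interval from limma; filled points have an adjusted p under 0.05. GATA5 is filled at each day (-2.30, -3.20 and -4.35), HHEX on days 3 and 4, SOX17 on day 3, GATA6 on days 3 and 4 and HNF4A on day 4, and the intervals of HHEX and SOX17 are the widest.

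Counted over the 12 probe sets, all of which passed the filter, 2 were lower and 0 higher on day 2 than on day 1, 5 lower and 2 higher on day 3, and 3 lower and 2 higher on day 4. Of all 23063 probe sets 2.04% were called lower and 3.7% higher on day 2, 13.5% lower and 12.1% higher on day 3, and 12% lower and 10.6% higher on day 4. Without normalization the 12 gave 4 lower on day 2, 5 on day 3 and 5 at day 4, with none higher on any of these days. On that scale 860 of all probe sets were lower and 371 higher on day 2, 5261 and 1219 at day 3, and 6344 and 790 at day 4, against 470 and 854, 3104 and 2781, and 2772 and 2453 after normalization. The median change of the 8 genes on day 4 was 0.31, against 0.01 over all probe sets, and on the deposited scale it was -0.22, against -0.55. The probe sets of a gene share their transcript, so the 12 are not independent.

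Over all 4 days the moderated F-test called 4 of the 12, both GATA5 probe sets, HHEX and the dimmer SOX17 set (adjusted p = 0.00081, 0.0021, 0.033 and 0.049), and 17.1% of all probe sets. The brighter SOX17 set, GATA6 and the brightest HNF4A set were at adjusted p = 0.11, 0.055 and 0.14. On the deposited scale the F-test called the brighter SOX17 set too (adjusted p = 0.018), but not GATA6 or HNF4A (adjusted p = 0.20 and 0.51). No member was called between neighbouring later days, and limma called none of the 23063 probe sets there, 0% lower and 0% higher for day 3 against day 2 and for day 4 against day 3. At an unadjusted p under 0.05 the members had 2 lower and 0 higher for day 3 against day 2, the brighter SOX17 and GATA5 sets, and 2 lower and 1 higher for day 4 against day 3, both GATA5 sets and the dimmer SOX17 set. Over all probe sets those counts were 2923 and 1475, and 1663 and 915 on the deposited scale. The bright GATA5 set changed by -0.90 ± 0.34 between days 2 and 3 and by -1.15 ± 0.34 between days 3 and 4 (adjusted p = 0.34 and 0.64).

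**Figure D4:**
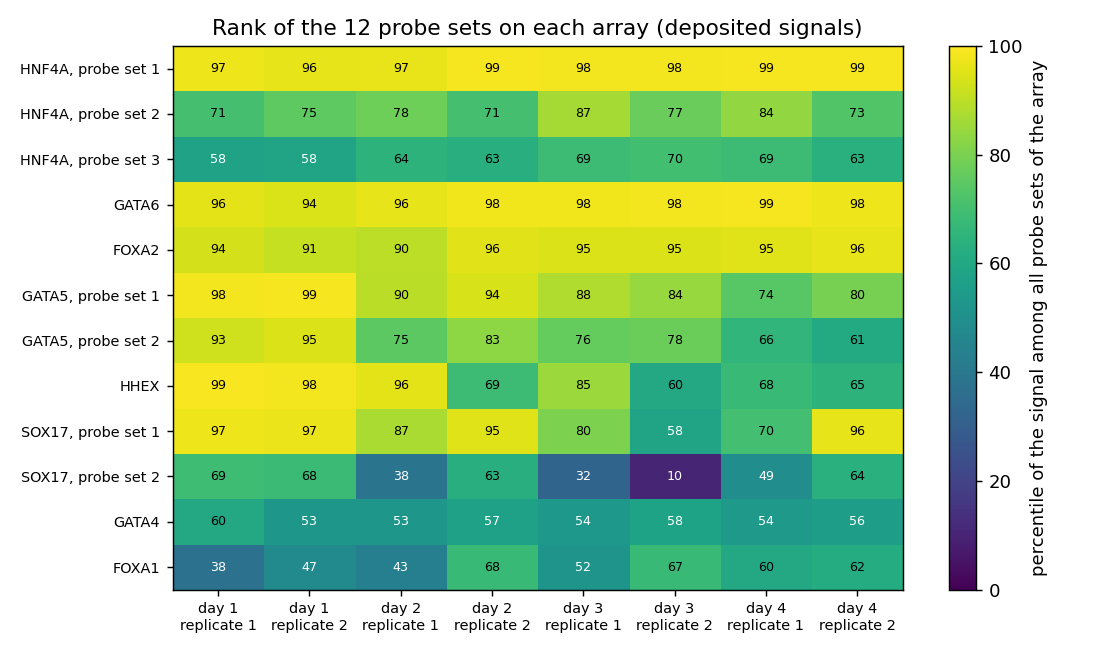
Percentile of each of the 12 probe sets among all probe sets of the same array (colour and number), from the deposited signals, with arrays in columns ordered by day and genes in rows. HNF4A set 1, GATA6 and FOXA2 stay at or above 89.9 on all 8 arrays, GATA5 set 1 stands at 74.1 and 79.7 at day 4 and 98.4 and 98.7 at day 1, and GATA4 stays between 52.8 and 60.3.

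The genes most like each factor were taken as the 5 with the highest Pearson r over the 8 arrays among 10104 named genes, as a description. Nearest to HHEX were CXCL12, which encodes a chemokine, SOX7, a paralogue of SOX17, OLFML3, OLFM1 and HAND2, a factor of lateral mesoderm and heart (r = 0.988 to 0.992). Nearest to GATA5 were MPI, SDAD1, NAA25, CHCHD5 and LSG1 (r = 0.979 to 0.991), of which SDAD1 and LSG1 act in ribosome assembly. Nearest to SOX17 were RAD54B, WRAP73, KNTC1, CENPX and NOG (r = 0.969 to 0.987), among them genes of DNA recombination and the kinetochore and the BMP antagonist noggin.

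Among the factors not called lower, HNF4A was most like CHMP2A, PYGL, THEM4, CNKSR1 and SMPD1 (r = 0.977 to 0.986), of which PYGL encodes the liver form of glycogen phosphorylase and SMPD1 acid sphingomyelinase. FOXA2 was most like CA5A, ESRP2, SDSL, ZCCHC11 and FYB2 (r = 0.959 to 0.970), where ESRP2 encodes an epithelial splicing regulator. GATA6 was most like MSL3, CISD1, ZFYVE27, TMEM170A and COG1 (r = 0.987 to 0.996). For the dim genes the values were lower, 0.939 to 0.962 for FOXA1 with MRAP, C4A, ELMOD3, EPS8L2 and PLIN1 and 0.893 to 0.935 for GATA4 with ZDHHC5, SLC20A1, PLEKHM2, TTI1 and CNOT10. Between the members themselves r was 0.94 for FOXA2 and HNF4A, 0.88 for GATA6 and HNF4A, 0.82 for GATA5 and HHEX and -0.91 for HHEX and HNF4A, all over 8 arrays that share their days and their marker levels.

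Paralogues of the 8 factors also differed from each other. Of 9 listed, 6 had a probe set and 4 were tested on day 4 against day 1, with 1 higher and 1 lower. Of all probe sets 10.6% were called higher and 12% lower on that day. HNF4beta, an HNF4 paralogue described in frogs, rose by 3.16 ± 0.33 (adjusted p = 0.00076), with 571 and 348 at day 4 and 43.6 and 28.9 at day 1. SOX7, a paralogue of SOX17 in endothelium and endoderm, fell to below the filter level (adjusted p = 0.019), with 6.59 and 9.38 at day 4 and 318 and 171 at day 1, and it was 162 and 8.05 at day 2, split between the replicates as HHEX was. SOX18 and GATA3 did not pass (0.85 ± 0.39 and -1.05 ± 0.44, adjusted p = 0.15 and 0.12), although GATA3 did on the deposited scale (adjusted p = 0.040), and GATA2 and HNF4G were below the filter.

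Upstream of the factors, genes of Nodal, BMP and WNT signalling were called in both directions on day 4. Of 24 listed, 15 were tested, 7 were lower, 2 higher and 6 did not pass, with a median change of -0.37 (7 lower and 1 higher of 14, median -1.44, on the deposited scale). Over all probe sets 12% were lower and 10.6% higher on day 4, and on the deposited scale 6344 and 790 of 23063. CFC1, the co-receptor of Nodal, fell (adjusted p = 0.0084), with 0.49 and 5.04 on day 4, below the filter level, and 562 and 920 on day 1. BMP2 changed by -2.31 ± 0.41 (adjusted p = 0.0061) and BMP7 by -2.53 ± 0.45 (adjusted p = 0.0065). SMAD3, which transmits Nodal and TGF-beta signals, rose by 1.88 ± 0.24 (adjusted p = 0.0017). CFC1 was 349 and 21.1 at day 2, again higher on the array with the higher mesoderm sum.

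Partner proteins of GATA and FOXA factors gave 4 lower and 1 higher of 10 tested and 17 listed (4 lower and 0 higher on the deposited scale), with a median change of 0.08, or -0.66 on the deposited scale. The shares over all probe sets on day 4 were 12% lower and 10.6% higher, and on the deposited scale 6344 and 790 of 23063 were called. LMO2 and TAL1, which join GATA factors in blood and vessel precursors and are also among the endothelial markers, changed by -5.40 ± 1.18 and -2.87 ± 0.49 (adjusted p = 0.014 and 0.0055). The Groucho corepressor genes TLE3 and TLE4 fell (adjusted p = 0.0041 and 0.0082), TLE4 by 1.37 ± 0.26 and TLE3 to below the filter level, with 2.35 and 3.30 at day 4 and 32.2 and 29.9 at day 1. The member that rose, named here after its value was seen, was NR0B2, a nuclear receptor that represses HNF4A activity in mammals (1.07 ± 0.33, adjusted p = 0.049), and it was not called on the deposited scale (adjusted p = 0.44). LMO2 was 1217 and 71.6 at day 2, split between the replicates in the same direction as HHEX.

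Other endodermal and hepatic factors moved in both directions, with 5 lower and 7 higher of 21 tested and 31 listed and a median change of -0.14 (8 lower and 3 higher on the deposited scale). Among all probe sets 12% were lower and 10.6% higher on day 4, and on the deposited scale 6344 and 790 of 23063. CDX4, whose homeobox product patterns the hind part of embryos, was lower, at -5.57 ± 0.35 (adjusted p = 8.3e-05). PROX1, CREB3L3 and CEBPB, which act in hepatocytes, rose by 1.74 ± 0.33, 1.68 ± 0.28 and 1.49 ± 0.21 (adjusted p = 0.0082, 0.0051 and 0.0027).

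Most of the known hepatic-type targets of HNF4A, FOXA and GATA factors rose. Of 34 listed, which include all 10 markers of yolk sac endoderm, 28 were tested on day 4 against day 1, 23 were higher and 0 lower, with a median change of 1.92 against 0.01 over all probe sets. Among all probe sets 10.6% were called higher and 12% lower on that day. This list, like the others, was chosen with earlier results of these data known, so its counts are a description and not a test. The part of the factors in these rises was not tested. Without normalization 17 of 27 targets were higher and 0 lower, against 790 and 6344 of all 23063 probe sets. AFP, for alpha-fetoprotein, was below the filter level on day 1 and rose, SERPIND1, for heparin cofactor II, rose by 4.69 ± 0.20, APOA4, for an apolipoprotein, by 4.37 ± 0.18, and FBP1, for a gluconeogenic enzyme, by 2.13 ± 0.12 (adjusted p = 1.7e-06, 1.9e-05, 1.9e-05 and 6.5e-05). On day 2, 20 of the 28 targets were called higher (15 of 27 on the deposited scale), against 3.7% of all probe sets. AFP stood at 3620 and 3918 at day 2 and at 6.77 and 2.11 at day 1.

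By their own tests on day 4 against day 1, the yolk sac endoderm markers had 7 higher and 0 lower of 9, the primitive blood markers 6 higher and 1 lower of 8, and the endothelial markers 1 higher and 4 lower of 14. The mesoderm and streak markers had 0 higher and 3 lower of 15, the cardiac markers 0 higher and 5 lower of 9, and the ectoderm and neural markers 0 higher and 4 lower of 11. Over all probe sets 12% were called lower and 10.6% higher. The lower counts on the deposited scale were 0, 1, 7, 11, 5 and 9 and the higher counts 5, 6, 0, 0, 0 and 0 in the same order of lists. On that scale 6344 of all 23063 probe sets were lower and 790 higher. The 8 factors share symbols with none of these lists.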

How the data were processed

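Signals of 8 Affymetrix Chicken Genome Arrays were used. The deposited values are linear signal intensities, one per probe set, made with MAS5 per the submitters' processing notes; no source used here gives its version, scaling target or detection calls. Array medians differed, so arrays were quantile normalized. Of 38535 probe sets 96 controls were set aside; 27168 of the rest had 1 gene symbol, 177 several and 11094 none.

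From the deposited signals, log2(normalized signal + 16) of the 23063 probe sets with a mean above the 40th percentile (9.97) was fitted in limma 3.58.1 (R 4.3.3; lmFit, eBayes with trend) on all 8 arrays, with 4 residual degrees of freedom and Benjamini-Hochberg adjustment. The fit was tested on simulated data. A gene counted as lost after day 1 if its brightest probe set fell at every later day, as lower later if at some, and otherwise as kept. Every member probe set is described, and up to 4 genes with the smallest adjusted p on day 4 of each other list. Members and lists were chosen with earlier results of these data known. Plots used Python 3.11.15 and matplotlib 3.10.9. The labels do not say that a replicate number marks a shared batch, so no block was fitted. Deviations of same-numbered arrays from their day means correlated over 0.1 in 1 of 6 pairs, at 0.38. The number of arrays limits the precision.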

Additional observations from a re-analysis of the deposited data

How the results depend on the processing

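Of 474 values of the 24 changes of the 8 genes from day 1, under 19 planned settings and 1 added after the data were seen, 419 kept their direction and call, 31 lost a call, 13 gained one and 11 changed sign; the cause was not tested. On the deposited scale the probe sets called were 4 lower on day 2, 0 higher on day 3, and 5 lower and 0 higher on day 4. A robust trend gave 3 lower on day 3, shifting arrays to the same median 1 higher on day 3, no intensity trend 1 higher on day 4, and no filter 1 higher on day 3, 1 higher on day 4 and 2 in the F-test. The mean of a gene's probe sets gave 2 genes higher on day 3. Leaving out 1 array at a time gave 0 to 3 lower and 0 to 1 higher on day 2, 2 to 5 lower and 0 to 2 higher on day 3, 2 to 4 lower and 0 to 3 higher on day 4, and 2 to 7 in the F-test.

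With the replicate number as a block, although the labels do not pair the arrays by number (correlations -0.11 to 0.38), 1 probe set was higher on day 3 and HHEX was called on day 2 (adjusted p = 0.047).

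Signs changed for changes near 0. GATA4 ran from -0.24 to 0.10 on day 2, -0.21 to 0.13 on day 3 and -0.26 to 0.081 on day 4 with 1 array left out, and was 0.021 and 0.049 on days 2 and 3 without the first arrays of both days. FOXA2 on day 2 was -0.24 on the deposited scale and -0.45 to 0.82 with 1 array left out, and HNF4A on day 2 was -0.0076 to 0.99.

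Over all probe sets, day 2 had 286 lower and 607 higher with no filter, 305 lower with a pseudocount of 1 or only the 2 days compared, and 40 lower and 183 higher without day 1 replicate 2. Without that array 991 were lower and 1186 higher on day 3, 622 and 820 on day 4, and 406 differed in the F-test. Without day 1 replicate 1 the counts were 93 lower and 285 higher at day 2, 1374 and 1454 at day 3, 1031 and 1118 at day 4, and 613 in the F-test. Day 2 had 129 lower and 441 higher without day 2 replicate 2, 817 lower without day 2 replicate 1, and 236 lower without either array of day 3. Day 3 had 1681 lower and 1630 higher without its replicate 1 and 1113 lower and 1321 higher without its replicate 2, where the F-test gave 2317 and 1991. Day 4 had 901 lower and 1060 higher without its replicate 1. With 2 arrays a day, calls rest on few samples.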
